A study of Mus musculus with 4 samples.

Results

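To investigate protease inhibitors and cytotoxic proteases in activated ILC2s, the 9 genes Serpina3g, Serpina3f, Serpinb6a, Serpinb6b, Serpinb9, Serpinb1a, Gzma, Gzmb and Gzmc were followed, out of 22554 genes in the count table. They are intracellular serpins of clades A3 and B and granzymes, found by gene name in the table. The members were chosen by name with their values in these same libraries already known, so their values and changes are given as a description. The cells were ILC2s (group 2 innate lymphoid cells) sorted from lungs of BALB/c mice aged 6 weeks. All groups received IL-2, IL-7 and IL-33 in overnight culture, with vehicle in 2 libraries and with compound 5D in the other 2. 5D is a small molecule that blocks all Orai calcium channels, and no genotype differed between the groups. The labels do not say whether the libraries of a group came from separate animals or cultures, so p-values measure only the spread between these libraries, which may be technical.

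Serpins are single-use protease inhibitors. A protease cuts the exposed reactive centre loop of the serpin, the serpin refolds, and the protease stays trapped in a covalent complex. Clade B serpins and a few clade A3 serpins lack a classical secretion signal and act in the cytosol and nucleus, where they are known to protect lymphocytes and myeloid cells from proteases that leak out of lysosomes and granules. Granzymes are serine proteases stored in the granules of cytotoxic T cells and NK cells, and several are also made by innate lymphoid cells and mast cells.

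The reactive centre loop decides which protease a serpin can trap, so the coding sequence of this loop is shown for the 6 serpin members in pairs, from the hinge to the conserved stretch that follows the loop. Sequences are from the GENCODE M21 transcripts on mm10, in coding orientation, and capitals mark bases that differ between the aligned sequences of a pair or stand opposite a gap. Serpina3g (chr12:104241066-104241146, plus strand) and Serpina3f (chr12:104220239-104220322, plus strand) differed in 26 of 84 aligned columns.

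Serpina3g: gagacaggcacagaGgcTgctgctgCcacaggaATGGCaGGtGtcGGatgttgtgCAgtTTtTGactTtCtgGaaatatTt
Serpina3f: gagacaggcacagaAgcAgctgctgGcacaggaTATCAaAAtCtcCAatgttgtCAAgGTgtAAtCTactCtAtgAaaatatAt

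Capitals were sparse at the hinge end of this pair and dense in the part after it. Serpinb6a (chr13:33918128-33918199, minus strand) and Serpinb6b (chr13:32978201-32978266, plus strand) differed in 22 of 72 aligned columns, with a loop of 24 codons against 22.

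Serpinb6a: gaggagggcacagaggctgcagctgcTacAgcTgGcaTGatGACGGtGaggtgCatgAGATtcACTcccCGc
Serpinb6b: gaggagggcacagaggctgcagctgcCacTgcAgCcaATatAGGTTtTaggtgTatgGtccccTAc

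Serpinb9 (chr13:33015693-33015761, plus strand) and Serpinb1a (chr13:32842905-32842976, minus strand) are more distant relatives, and differed in 30 of 74 aligned columns.

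Serpinb9: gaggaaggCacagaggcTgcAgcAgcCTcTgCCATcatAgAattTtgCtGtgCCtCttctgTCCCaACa
Serpinb1a: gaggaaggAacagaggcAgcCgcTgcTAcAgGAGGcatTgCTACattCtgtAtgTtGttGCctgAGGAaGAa

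For the granzymes that were detected, the coding stretch around the catalytic serine is shown, with the serine codon in capitals. That of Gzma (chr13:113094003-113095774, minus strand) and that of Gzmb (chr14:56259515-56260205, minus strand) each cross an intron.

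Gzma: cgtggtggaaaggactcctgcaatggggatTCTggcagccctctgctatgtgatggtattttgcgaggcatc
Gzmb: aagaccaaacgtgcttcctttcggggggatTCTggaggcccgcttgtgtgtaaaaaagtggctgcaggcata

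Over the whole coding sequence, with end gaps left out, the granzymes Gzma and Gzmb were 55.6% identical and Gzmb and Gzmc 76.2%. Serpinb6a and Serpinb6b were 85.7% identical, and Serpinb9 and Serpinb1a 59.6%. Serpina3g and Serpina3f were 85.6% identical over 759 aligned columns, where the annotated coding sequence of Serpina3g has 744 bases and that of Serpina3f 1335. The Serpina3g model may be incomplete, so this identity covers only the part that both models hold.

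Because relatives this close can share reads, each member transcript was cut into all windows of 75 bases, and each window was looked up on either strand in the transcripts of all other annotated genes. Of the 1729 windows of Serpina3g, 8.91% were found in another gene, which was Serpina3h for 86 windows, Serpina3i for 61, Serpina3f for 45, Serpina3n for 26 and the pseudogene Serpina3e-ps for 47. For Serpina3f the share was 5.61%, with Serpina3i, Serpina3h, Serpina3g and the same pseudogene as partners. For Serpinb6a the share was 6.78%, all in the overlapping gene 1110046J04Rik, and for Serpinb1a it was 0.380%, in Serpinb1b. Serpinb6b, Serpinb9, Gzma, Gzmb and Gzmc had no shared window of this length. The deposited counts were estimates, and they lay up to 0.5 from a whole number for Serpina3g, 0.48 for Serpinb6a and 0.398 for Serpina3f, but no more than 0.03 for the other members. Exons of Serpinb6a also overlapped exons of Nqo2 and Ripk1, and since the cDNA kit does not mark strand, reads from these stretches cannot be told apart.

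The libraries held 20096555 to 28697265 estimated counts. Levels below are normalized CPM, that is, estimated counts given per 1000000 counts of the library (CPM) after library sizes were adjusted by the upper quartile over all genes. ILC2 markers were high in every library, with a summed level of the 14 marker genes of 10390 to 10939 normalized CPM. The study gated ILC2s without cells bearing surface markers of T, B, NK and myeloid cells. Of 11 listed NK cell markers 6 were in the table. None of these exceeded 0.700 normalized CPM in any library, and their summed level was 0.850 to 1.03 with vehicle and 0.525 to 0.884 with 5D. T cell markers summed to 254 to 271 normalized CPM with vehicle and 271 to 275 with 5D. Trbc1, Trbc2 and Cd3g made up nearly all of it. Cd3e was at 3.83 and 3.15 with vehicle and at 4.13 and 2.76 with 5D. Cd3d did not exceed 0.517, Trac stayed at 0.400 or below, and Cd4 had 0 counts. Mast cell and basophil markers summed to 32.7 to 42.8 normalized CPM with vehicle and 42.9 to 48.4 with 5D, mostly Tpsab1. Fcer1a, Cpa3, Cma1, Tpsb2 and Mcpt8 were detected in every library, at 0.245 to 5.63 normalized CPM, and Ms4a2 and Mcpt4 had 0 counts. Fcer1a, Cma1 and Tpsb2 were highest in 5D replicate 2, and Cpa3 and Mcpt8 in vehicle replicate 1. The 4 neutrophil markers summed to at most 0.368, the 5 macrophage and dendritic cell markers to at most 6.75, the 3 B cell markers to at most 20.8, mostly Cd79b, and the 5 epithelial and endothelial markers to at most 49.8, mostly Epcam and Pecam1. The part of such cells in the values below was not tested.

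Across the 8 members that passed the filter on low counts, the values of Serpina3g, Serpina3f and Serpinb1a with 5D all lay below those with vehicle, those of Gzma lay above, and those of the remaining 4 overlapped between groups. Serpina3g stood highest per kilobase of exon and fell by 22.8%, to a mean of 206 ± 9.92 normalized CPM with 5D from 267 ± 0.173 with vehicle (SD, n = 2 each). In bulk RNA, fewer cells that express a gene and less RNA per cell cannot be told apart. At an adjusted p-value under 0.05 (edgeR, quasi-likelihood fit, Benjamini-Hochberg adjusted for the 17650 genes in the fit), 1 of 8 members was lower, Serpina3g, where 0.068% of all tested genes were lower. None was higher, where 0.0283% of all genes were. With no adjustment and the same limit (edgeR), 3 members passed as lower and 1 as higher, against 3.84% and 3.5% of all genes. The groups did not overlap for 4 of 8 members, with 5D the lower group for 3, as it was for 18.8% of all genes, and the higher group for 1, against 18.7%. Since the members were chosen with these values known, nothing is read from those counts. The median log2 fold change of the 8 tested members was 0.02, and that of all genes was -0.0016. The 9th member, Gzmc, did not pass the filter.

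**Figure D1:**
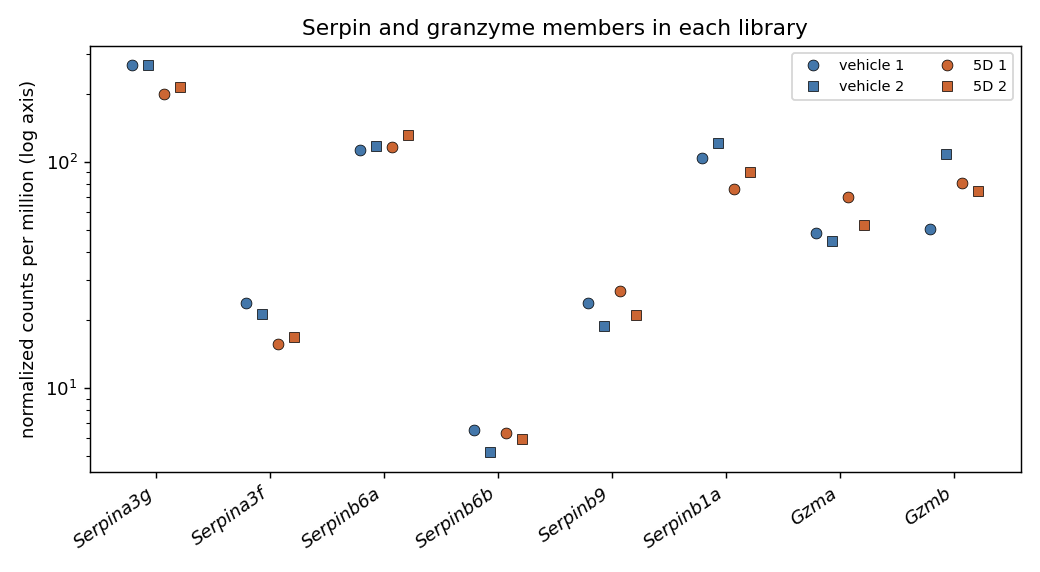
Normalized CPM (log axis) of the 8 detected members in each of the 4 libraries, blue for vehicle and orange for 5D, circles for replicate 1 and squares for replicate 2; Gzmc, at 0 in all, is left out. Serpina3g, Serpina3f and Serpinb1a sit lower in both 5D libraries, and the 2 vehicle points of Gzmb lie apart at 50.5 and 108.

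Serpina3g, also known as Spi2A, is an inhibitor of cysteine cathepsins and serine proteases that is induced in activated lymphocytes and macrophages. It lies on chromosome 12 (mm10 chr12:104236245-104241939, plus strand, 5 exons in its coding transcript). Its level was 267 normalized CPM in each vehicle library, 199 in 5D replicate 1 and 213 in 5D replicate 2. Both 5D libraries were lower than both vehicle libraries, and the vehicle libraries were almost equal. Among 7225 genes with a mean of over 20 normalized CPM, ranked from the largest, this vehicle difference was 7146th. The difference between the 5D libraries ranked 2871st. The log2 fold change was -0.37 ± 0.053 (SE). Its mean level was above that of 95.4% of the tested genes, and it rests on 5344 to 6208 counts per library. Without 5D replicate 1 the log2 fold change was -0.33 and the gene no longer passed the adjusted threshold, while it passed without any other library.

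Serpina3f is a neighbour of Serpina3g in the same cluster (chr12:104214544-104221129, plus strand) and belongs to the same group of antichymotrypsin-like serpins. It was at 23.9 and 21.3 normalized CPM with vehicle and at 15.6 and 16.9 with 5D. The groups did not overlap, and the log2 fold change was -0.48 ± 0.131 (SE). It rests on 424 to 555 counts per library.

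Of the other clade A3 genes in the table, Serpina3i was at 4.35 and 3.95 normalized CPM with vehicle and at 4.02 and 3.67 with 5D, which overlapped. Serpina3h was at 1.08 and 0.999 with vehicle and at 0.442 and 0.455 with 5D, with a log2 fold change of -1.20 ± 0.570 (SE, adjusted p = 0.690, edgeR), at a depth where both 5D values rest on few counts. Serpina3n had at most 3 counts in every library. Neither of the tested relatives passed an adjusted p-value of 0.05. With the counts of the 5 Serpina3 genes summed, the family was at 297 and 293 normalized CPM with vehicle and at 219 and 234 with 5D, a log2 fold change of -0.38 ± 0.052 (SE). Serpina3g held 90.1% to 91.1% of the family's counts in the 4 libraries, and Serpina3f 7.12% to 8.05%. The sum was lower in both 5D libraries, and most of it is Serpina3g itself. It does not depend on how reads were split among these 5 genes. The pseudogene Serpina3e-ps is not in the sum, so reads shared with it are not covered.

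The promoters of both genes hold a match to the letters TTCNNNGAA, the GAS element that STAT factors bind, and are shown for that reason. The sequences are from RefSeq on GRCm38.p6, upstream of the start site, with the match in capitals. The match begins 121 bases before the first of the 2 annotated start sites of Serpina3f (chr12:104214353-104214451, plus strand) and 33 bases before that of Serpina3g (chr12:104236044-104236142, plus strand). Counted from the other start site of Serpina3f, it begins at position -210. The GENCODE annotation starts Serpina3g further downstream, at 104236245, so the distance of 33 bases depends on the RefSeq start site used.

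Serpina3f: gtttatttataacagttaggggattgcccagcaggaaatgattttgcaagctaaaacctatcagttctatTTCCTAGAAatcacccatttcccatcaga
Serpina3g: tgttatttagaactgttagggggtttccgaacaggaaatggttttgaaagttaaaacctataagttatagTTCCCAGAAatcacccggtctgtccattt

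These windows were 75.8% identical over 99 aligned columns. RefSeq promoters, from 250 bases before to 50 bases after a start site, matched 8 of the 9 members, with 10 promoters in all. A member was counted if any of its promoters matched, while the share over all is of single promoters, so these are unlike units. For Serpina3f and Serpinb6a, not every match was found in all promoters of the gene. On either strand, the GAS letters were found for 4 of the 8 (Serpina3f, Serpina3g, Serpinb6a and Gzmb) and in 8.3% of all 32851 promoters. The NFAT core TGGAAA was found for Serpina3f, Serpinb9 and Gzma and in 21.4% of all promoters. NFAT factors are switched on by the calcium that enters through Orai channels. The IRF letters GAAANNGAA were found for Gzma, Serpina3f, Serpinb6a and Serpinb9 (8.56% of all promoters), the AP-1 letters TGANTCA for Gzmb alone (7.81%) and the aryl hydrocarbon receptor core GCGTG for Serpina3f and Serpinb6a (32.4%). IRF and GAS matches overlap each other in Serpina3f and Serpinb6a, and an IRF and the NFAT match do so in Gzma. A match is a description of letters and not of binding, which was not measured here.

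Serpinb1a is an inhibitor of neutrophil elastase, cathepsin G and proteinase 3, best known from neutrophils (chr13:32842092-32851185, minus strand). Its level was 104 and 122 normalized CPM with vehicle and 75.8 and 90.3 with 5D. Both 5D libraries were lower than both vehicle libraries, with a log2 fold change of -0.44 ± 0.095 (SE). In each group replicate 2 was higher, by 1.17-fold with vehicle and by 1.19-fold with 5D. The change was -0.33 without 5D replicate 1 and -0.58 without 5D replicate 2. It passed the adjusted threshold without vehicle replicate 1, at -0.55. With all 4 libraries it did not pass in the fit used here (adjusted p = 0.217, edgeR). It passed with no filter on low counts (adjusted p = 0.0337, edgeR) and with DESeq2 (adjusted p = 0.00386). With replicate number as a block it passed as well (adjusted p = 0.00847, edgeR). It did not pass in the other fits to all 4 libraries, among them limma-voom (adjusted p = 0.142) and TMM normalization (adjusted p = 0.228, edgeR). Its relative Serpinb1b had 0 counts in all libraries.

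The other 3 clade B members did not separate the groups. Serpinb6a inhibits cathepsin G and other serine proteases (chr13:33917918-34002794, minus strand), and was at 113 and 117 normalized CPM with vehicle and at 116 and 131 with 5D. The groups overlapped, and the log2 fold change was 0.11 ± 0.071 (SE), and it was 0.02 without 5D replicate 2 and 0.18 without 5D replicate 1. Serpinb6b, known in mice as an inhibitor of granzyme A (chr13:32965209-32979067, plus strand), was at 6.54 and 5.20 with vehicle and at 6.34 and 5.95 with 5D. Its log2 fold change was 0.06 ± 0.218 (SE), it rests on 104 to 172 counts, and it turned to -0.09 without vehicle replicate 2. Serpinb9, the inhibitor of granzyme B that shields cytotoxic cells from their own granules (chr13:33003250-33017957, plus strand), was at 23.8 and 18.7 with vehicle and at 26.8 and 21.1 with 5D. In each group replicate 2 was below replicate 1 by 1.27-fold, a log2 difference of -0.34, which was larger in size than the log2 fold change of 0.17 ± 0.154 (SE) between groups. Without 5D replicate 1 it was at -0.02.

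The other clade B serpins that were analysed were near 0. Serpinb9b was at 0.295 to 0.664 normalized CPM over the 4 libraries and Serpinb2 did not exceed 0.344, with log2 fold changes of -0.21 ± 0.696 and 0.41 ± 1.06 (SE). Serpinb12 had at most 4 counts, and further genes of this clade were not analysed here. Serpins of other clades, which are mostly secreted, gave 6 tested genes with a median log2 fold change of -0.08, none of them past an adjusted p-value of 0.05 (edgeR; 0 also at an unadjusted p-value under 0.05). Serpine2, an inhibitor of thrombin and plasminogen activators, was at 3.85 to 4.74 normalized CPM with vehicle and at 3.78 to 5.67 with 5D. Serpini1, or neuroserpin, was at 7.10 and 7.90 with vehicle and at 6.41 and 10.0 with 5D. Serpinc1 did not exceed 1.03 in any library, and 58.6% of its 75-base windows also lie in the overlapping gene Zbtb37, so its counts cannot be assigned to it with certainty.

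**Figure D2:**
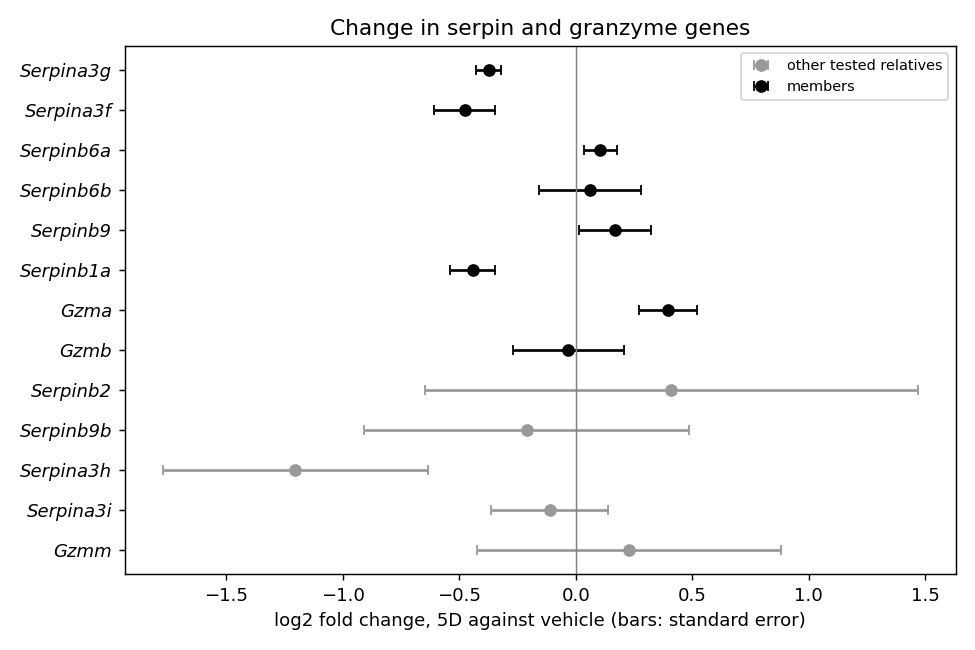
Log2 fold change of 5D against vehicle on the x axis, with standard errors as bars, for the 8 tested members (black) and their 5 tested relatives (grey). Serpina3g, Serpina3f and Serpinb1a lie at -0.37, -0.48 and -0.44, Gzma at 0.40, and the bars of the low relatives are wide.

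Granzymes were then compared. Gzma is a tryptase-like granzyme that cleaves after lysine and arginine (chr13:113093825-113100981, minus strand). It was at 48.4 and 44.7 normalized CPM with vehicle and at 70.3 and 52.4 with 5D. Both 5D libraries were above both vehicle libraries, but the 5D libraries differed from each other by 1.34-fold. The log2 fold change was 0.40 ± 0.125 (SE). It was 0.17 without 5D replicate 1 and 0.59 without 5D replicate 2, and it passed the adjusted threshold only without vehicle replicate 1, at 0.45.

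Gzmb cleaves after aspartate and activates caspases in target cells (chr14:56258838-56262260, minus strand). It was at 50.5 and 108 normalized CPM with vehicle and at 80.5 and 74.1 with 5D. Both 5D libraries lay between the vehicle libraries, which differed from each other by 2.14-fold. Among 7225 genes with a mean of over 20 normalized CPM, Gzmb ranked 2nd by the size of this difference between the vehicle libraries, and 2283rd by that between the 5D libraries. The log2 fold change was -0.03 ± 0.237 (SE). Without vehicle replicate 1 it was -0.49, and without vehicle replicate 2 it was 0.61, and both passed the adjusted threshold. The direction of Gzmb thus rests on which vehicle library is kept, and no direction can be given.

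Gzmc had 0 counts in all 4 libraries (chr14:56231441-56234656, minus strand). A count of 0 allows up to 3 counts, which is 0.105 to 0.150 CPM in these libraries, by counting error only. Of the other granzymes, Gzmm was in the table, at 0.775 and 0.350 normalized CPM with vehicle and at 0.774 and 0.560 with 5D, with a log2 fold change of 0.23 ± 0.651 (SE). The remaining granzymes were not analysed here.

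Per kilobase of exon, Gzma and Gzmb stood close together. Gzma was 1.37 times Gzmb in vehicle replicate 1, 0.590 times in vehicle replicate 2, and 1.25 and 1.01 times in the 5D libraries. The ratio was highest and lowest within the vehicle group, so the groups overlapped.

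**Figure D3:**
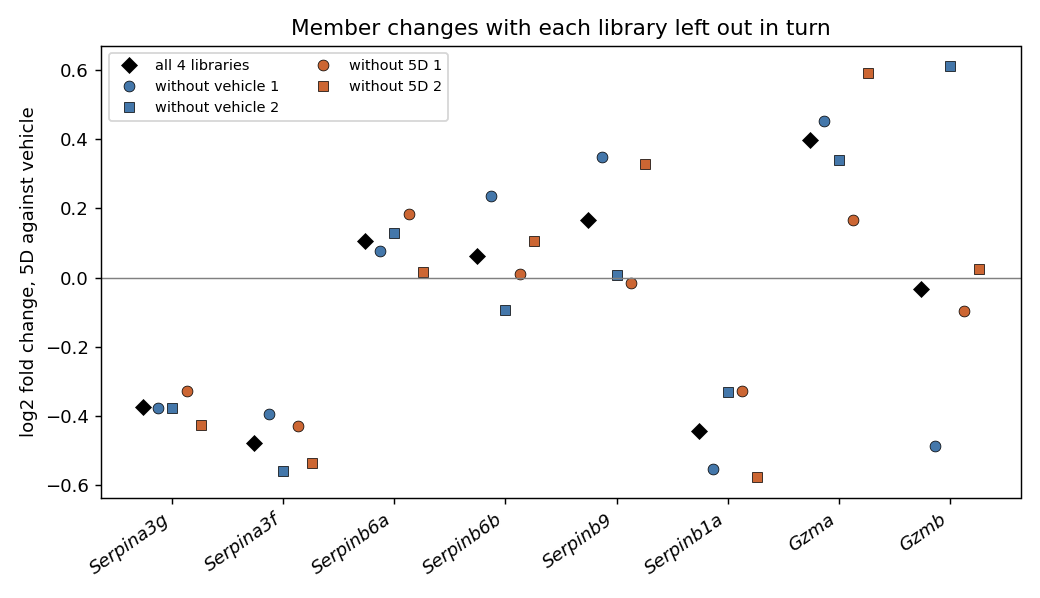
Log2 fold change of 5D against vehicle (y axis) for the 8 tested members with all 4 libraries (black diamonds) and with each library left out in turn (coloured points). Serpina3g stays between -0.42 and -0.33, while Gzmb runs from -0.49 without vehicle replicate 1 to 0.61 without vehicle replicate 2.

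To compare levels between genes, normalized CPM were divided by the length of all annotated exons of a gene. In normalized CPM per kilobase, over the 4 libraries, Serpina3g was at 94.7 to 127 and stood above all other members. Gzmb at 35.2 to 75.3, Gzma at 44.4 to 69.9 and Serpinb1a at 32.9 to 52.8 followed, and each overlapped the next in this order. Serpinb6a came below them at 20.9 to 24.2, without overlap. Serpina3f at 6.82 to 10.4 and Serpinb9 at 5.36 to 7.66 overlapped, and Serpinb6b was last of the detected members at 2.30 to 2.89. With the length of the longest transcript in place of all exons, Serpinb6a moved from a mean of 22.1 to 54.5 and from the 5th to the 3rd place, since its 17 annotated transcripts span 5409 bases of exon and the longest has 2191. The inhibitor of granzyme B, Serpinb9, was at a lower level per kilobase than Gzmb in every library.

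**Figure D4:**
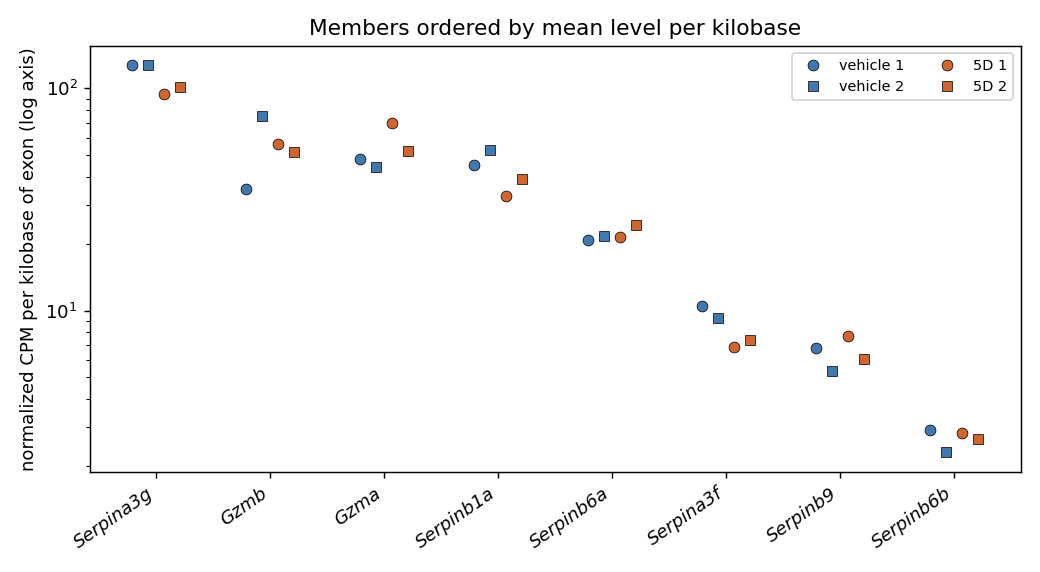
Normalized CPM per kilobase of exon (log axis) of the 8 detected members in each library, ordered by their mean; blue is vehicle, orange 5D, circles replicate 1 and squares replicate 2. Serpina3g stands highest at 94.7 to 127, Gzmb, Gzma and Serpinb1a overlap, and Serpinb6b is lowest.

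Genes that serve the granule in which granzymes are stored were mostly at like levels in both groups. Srgn, the proteoglycan serglycin that holds granzymes in the granule, was at 779 and 781 normalized CPM with vehicle and at 671 and 746 with 5D (log2 fold change -0.14 ± 0.050, SE; adjusted p = 0.566, edgeR), and its change was -0.067 without 5D replicate 1 and -0.22 without 5D replicate 2. Ctsc, the dipeptidyl peptidase that activates granzymes, was at 96.0 and 86.5 with vehicle and at 90.8 and 104 with 5D. Perforin (Prf1), which forms the pores that granzymes pass through, was at 1.38 and 1.35 with vehicle, and at 0.111 in 5D replicate 1 against a level above both vehicle libraries in 5D replicate 2. Its low value was that of 5D replicate 1 alone. Of 25 listed granule genes, 24 were in the table and 22 were tested. None passed an adjusted p-value of 0.05 (edgeR), and with no adjustment 1 passed as higher and 1 as lower, against 3.5% and 3.84% of all genes. These were Unc13d, a priming factor for granule fusion, at 191 and 189 with vehicle and 212 and 202 with 5D, and Srgn. Their median log2 fold change was 0.04. Next in order of p-value stood the granule protease Ctsh, with a log2 fold change of 0.19 ± 0.099 (SE), and the fusion protein Stx11, with -0.14 ± 0.076.

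Proteases that other leukocytes keep in granules, 8 of 11 genes tested, gave none past an adjusted p-value of 0.05 and 2 higher by the unadjusted p-value (edgeR), where 3.5% of all genes were. Tpsb2, a mast cell tryptase, was at 0.431 and 1.25 normalized CPM with vehicle and at 1.14 and 5.63 with 5D, which overlapped. Mcpt2 had 0 counts with vehicle and was at 0.479 and 0.0699 with 5D. Tpsab1 was at 24.9 and 37.1 with vehicle and at 35.4 and 34.6 with 5D, and Mcpt8 did not exceed 1.29.

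No change was detected in genes for proteins that granzymes act on. All 20 listed granzyme substrates and death effectors were tested, with 0 past an adjusted and 0 past an unadjusted p-value of 0.05 (edgeR) and a median log2 fold change of -0.0045. Among those with the smallest p-values, Apex1, a DNA repair enzyme that granzyme A cleaves, had a log2 fold change of -0.17 ± 0.081 (SE), the inflammatory caspase Casp1 0.11 ± 0.077 and the DNA repair kinase gene Prkdc 0.22 ± 0.128. A list of cathepsins with legumain (Lgmn) gave 10 tested genes, with 0 past an adjusted p-value of 0.05 (edgeR). These lysosomal proteases are not all targets of Serpina3g or the clade B serpins. Ctsc, Ctsh, Ctsl and Ctsw were counted with the granule genes instead. Of the 10, Ctse alone passed the unadjusted threshold (edgeR), as higher, where 3.5% of all genes were. It was at 48.2 and 51.5 normalized CPM with vehicle and 55.6 and 59.6 with 5D (adjusted p = 0.635, edgeR). Ctsk and Ctsf did not exceed 1.99 normalized CPM, and Ctsz had a log2 fold change of -0.05 ± 0.047 (SE).

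Receptors and transcription factors known to control granzyme and serpin genes were tested for 17 of 19 genes. None passed an adjusted p-value of 0.05 (edgeR). With no adjustment 5 passed as lower and none as higher, against 3.84% and 3.5% of all genes, in a list chosen with earlier results known and with a median log2 fold change of -0.10. Il2ra, the high-affinity chain of the IL-2 receptor, was at 2221 and 2068 normalized CPM with vehicle and at 1771 and 1874 with 5D (log2 fold change -0.23 ± 0.0415, SE; adjusted p = 0.0878, edgeR). Il2rb, the signalling chain it shares with IL-15, was at 459 and 464 with vehicle and at 412 and 417 with 5D. Prdm1 encodes Blimp-1, a factor that promotes granzyme B in T cells, and had a log2 fold change of -0.31 ± 0.098 (SE), Nfil3 -0.22 ± 0.079 and Batf -0.18 ± 0.069, with adjusted p-values of 0.532 to 0.583 (edgeR). T-bet (Tbx21) and Eomes, which drive granzymes in cytotoxic cells, did not pass the filter on low counts and were at most at 0.301 normalized CPM. Stat5a and Stat5b, which carry the IL-2 signal, had log2 fold changes of 0.05 ± 0.091 and 0.01 ± 0.068 (SE).

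**Figure D5:**
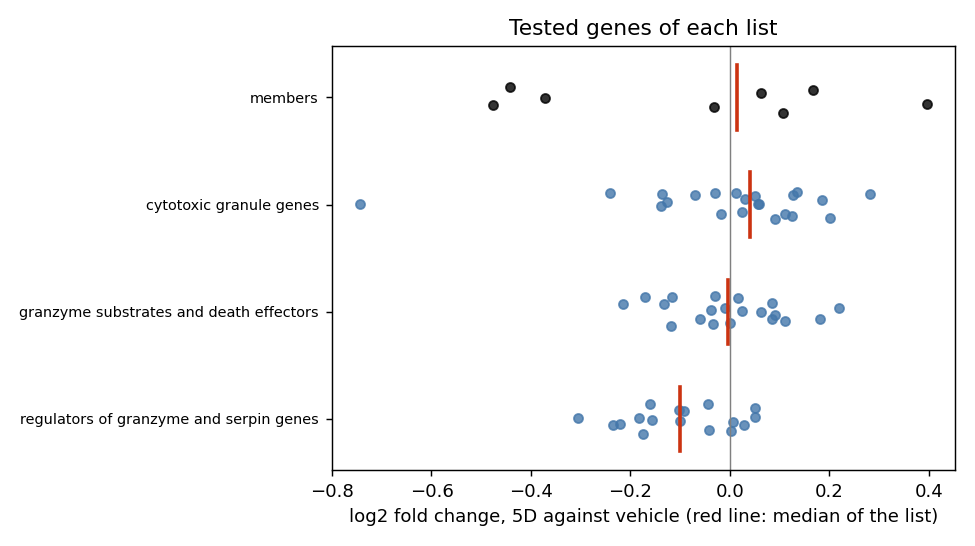
Log2 fold change of 5D against vehicle (x axis) for each tested gene of 4 lists, with the median of each list as a red line; height within a list has no meaning. The members spread from -0.48 to 0.40 around a median of 0.02, the regulators have a median of -0.10, and Prf1 is the granule gene at -0.74.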

How the data were processed

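RNA was measured in 2 vehicle and 2 5D libraries of sorted lung ILC2s. The authors made cDNA with a low-input kit, sequenced it on a NextSeq 500 and, per the submitters' processing notes, used CASAVA 1.8.2, STAR 2.6.1 and Partek with the mm10 genome, and GENCODE M21 annotation. They deposited estimated counts per gene, not normalized. The labels give an overnight culture where the study's methods give a longer one.

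The members and lists were chosen with earlier results of these data known. Counts were rounded to whole numbers and fitted in R 4.3.3 with edgeR 4.0.16 (quasi-likelihood test, upper quartile normalization, no covariate, two-sided, Benjamini-Hochberg adjustment over all genes). The filter on low values asked for a normalized count of 1 or more on average and 10 or more in sum, which kept 17650 and left out 4904. The SE of a log2 fold change was its size over the root of F. The design had assumed protein sequences for identity, and coding bases were used instead. Totals of 20096555 to 28697265 estimated counts set the precision, and the biological coefficient of variation was 8.51%. Exact permutation of 2 against 2 libraries cannot go below p = 0.333.

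Named genes were the members, every other clade A3 or B serpin and granzyme with a row in the table used here, the up to 4 genes with the smallest p-values of each other list of roles (all past an adjusted p-value of 0.05, had there been any), and Prf1, Srgn and Ctsc; marker genes, Tbx21, Eomes, Stat5a, Stat5b and Batf were named after their values were seen. A few genes that this rule selects are not reported here. No likeness of pattern was ranked, since 4 libraries are too few. Alternatives were TMM and DESeq2 size factors, DESeq2 1.42.0, limma-voom (limma 3.58.1), no filter, filterByExpr, unrounded counts, a replicate block, summed paralogs, other lengths and windows, and each library left out. Alignments used Biopython 1.88 and figures matplotlib 3.10.9.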

Additional observations from a re-analysis of the deposited data

How the results depend on the processing

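Serpina3g kept its direction and its side of the threshold under all alternatives but 1, without 5D replicate 1. The number of lower members at an adjusted p-value under 0.05 was 1, and it was 2 with DESeq2, with no filter and with the replicate block, Serpinb1a being added each time, and 0 to 3 with each library left out. The number of higher members was 0, and 0 to 1 with each library left out, and at an unadjusted p-value 1, and 1 to 2. These unadjusted counts were chosen after seeing the data. In fits that leave out a library, the lone sample is assumed to vary like the other group.

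Over all genes, 5 were higher and 12 lower. There were 16 and 42 with DESeq2, 9 and 23 with limma-voom, 11 and 35 with no filter, 9 and 32 with the replicate block, and 19 lower with filterByExpr. With each library left out there were 3 to 73 higher and 12 to 107 lower. Of the other listed genes 0 passed, and 1, Il2ra, under DESeq2 (adjusted p = 4.87e-05), under limma-voom, without a filter and under the replicate block, and 1 to 3 with each library left out.

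The log2 fold change turned in sign for Gzmb, at 0.094 with limma-voom and 0.047 with the replicate block, and over the fits with a library left out it ran from -0.49 to 0.61. Likewise over those fits Serpinb6b ran from -0.094 to 0.24, Serpinb9 from -0.015 to 0.35, Serpinb2 from -0.35 to 2.32, Serpinb9b from -0.91 to 0.25, Gzmm from -0.22 to 0.92, Prf1 from -3.56 to 0.14, Ctsc from -0.0092 to 0.18, Serpini1 from -0.23 to 0.42, Serpine2 from -0.19 to 0.40, Tpsab1 from -0.086 to 0.49 and Mcpt8 from -1.82 to 0.32. The cause was not tested.

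The labels give both groups replicate numbers 1 and 2. Deviations of the replicate 1 libraries from their group means correlated at r = 0.0714 over 7225 genes. With 2 libraries per group, this cannot decide whether the libraries were paired. With windows of 50 bases the shared share rose, to 16.02% for Serpina3g, 10.7% for Serpina3f and 13.1% for Serpinb6a. At this depth, changes in Prf1, Gzmm and the low relatives could not be measured well.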
